A study of Homo sapiens with 6 samples.

Results

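The RAB small GTPases examined here are the genes whose name in the deposited count table is RAB followed by a number and at most 1 further letter. Of the 60835 gene names in that table, 64 met this rule; RefSeq lists 63 of them as protein-coding and RAB1C as a pseudogene. All samples came from the human colorectal cancer line SW620, an established cell line in which RNA was sequenced from libraries made with an mRNA kit. The 3 libraries labelled shDNM1 came from cells with the genotype label DNM1 Knockdown, described as stable, and the 3 shControl libraries from cells with the genotype label WT that had been transduced with a control vector. All were grown in DMEM with serum, and DNM1 encodes dynamin 1, a GTPase that severs vesicles from the plasma membrane. The sources used here give neither the hairpin sequence nor its promoter, nor whether the cells were clones. The labels put every library labelled shDNM1 in batch_B and every shControl library in batch_A, so the vector and the batch cannot be told apart. Whether replicates were separate cultures is not labelled, so a p-value here reflects spread among these 6 libraries and that spread may be technical.

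RAB proteins switch between a GTP-bound form on membranes and a GDP-bound form that the chaperone GDI holds in the cytosol. Exchange factors load GTP, GTPase-activating proteins (GAPs) return the switch to its off state, and effectors read the GTP-bound form to move, tether or fuse vesicles. Each RAB marks a particular compartment, such as the Golgi, early endosomes, recycling endosomes or lysosomes, and in intestinal epithelium the family sorts cargo between the apical and basolateral surfaces. Dynamins act upstream of several of these compartments, at the step where endocytic vesicles leave the plasma membrane.

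The libraries held 12845339 to 13297842 counts in the set labelled shDNM1 and 12844534 to 13537519 in shControl. Pearson correlations of log2 CPM between libraries were 0.987 to 0.992 within a group and 0.975 to 0.977 between groups. Mitochondrially encoded genes took 3.71% to 4.01% of the counts in libraries labelled shDNM1 and 3.4% to 3.44% in shControl libraries, and their part in the RAB results was not tested. The targeted gene was not clearly lower: DNM1 had 125.8, 97.8 and 125.5 CPM (read counts scaled to a common library total by TMM) in the libraries labelled shDNM1, against 126.7, 126.9 and 133.4 CPM in shControl libraries. The log2 fold change was -0.15 (edgeR quasi-likelihood test, adjusted p = 0.189). A two-sided exact permutation test gave p = 0.1, its lowest possible value with groups of 3. Without shDNM1 replicate 1 DNM1 passed (log2 fold change -0.20, adjusted p = 0.0399), and without replicate 2 the log2 fold change was -0.04. Directions given for RAB genes therefore compare the 2 labelled sets of libraries, without reference to how far DNM1 was lowered. All 7 colon epithelial markers examined were detected, with a summed TPM (a level corrected for gene length and library total) of 10024 to 10713 in the libraries labelled shDNM1 and 9018 to 9509 in shControl. KRT8 and KRT18 made up most of this sum and rose with CDH1 and CDX2, whereas EPCAM fell (704 ± 15.8 TPM in the libraries labelled shDNM1 and 827 ± 29.9 TPM in shControl). VIL1 did not pass, and KRT20, at 0.756 ± 0.114 TPM in the libraries labelled shDNM1 and 1.69 ± 0.787 TPM in shControl, was not tested. Of 6 fibroblast markers 3 reached a mean of 1 TPM, with sums of 36.2 to 54.3 TPM in the libraries labelled shDNM1 and 28.6 to 36.1 TPM in shControl, and COL3A1 was listed at 0. Of 5 blood cell markers only LYZ reached 1 TPM, and CD3E was listed at 0 (sums of 2.66 to 4.21 TPM in the libraries labelled shDNM1 and 6.84 to 9.11 TPM in shControl). Of 4 endothelial markers 2 did, and KDR was listed at 0 (sums of 6.82 to 9.06 TPM in the libraries labelled shDNM1 and 7.20 to 8.35 TPM in shControl). The part of these marker genes in the RAB results was not tested.

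RAB7A, which directs late endosomes to lysosomes, led with a mean of 256 ± 4.0 TPM (SD, n = 3) in the libraries labelled shDNM1 and 234 ± 2.22 TPM in shControl. RAB20, an endosomal RAB of epithelial cells, RAB6A of the Golgi, RAB1A of the ER to Golgi step and RAB10, which serves basolateral and exocytic transport, also exceeded 100 TPM on average. Below them came RAB1B, RAB11A and RAB14, at 87.8 to 99.4 TPM in the libraries labelled shDNM1 and 88.1 to 91.9 TPM in shControl, so that their order is not resolved by the spread between libraries. RAB11B was close to RAB14 in its mean over all libraries (87.9 and 88.4 TPM). It had 75.7 ± 6.17 TPM in the libraries labelled shDNM1 and 100 ± 7.21 TPM in shControl. Over all libraries 15 members averaged at least 50 TPM, 32 at least 10 TPM and 48 at least 1 TPM. The summed TPM of all 64 was 2221, 2223 and 2230 in the libraries labelled shDNM1, against 2221, 2219 and 2232 in shControl, and the groups overlapped. As a share of raw counts, which does not correct for gene length, the family took 0.246%, 0.247% and 0.245% in the libraries labelled shDNM1, against 0.233%, 0.235% and 0.238% in shControl.

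**Figure D1:**
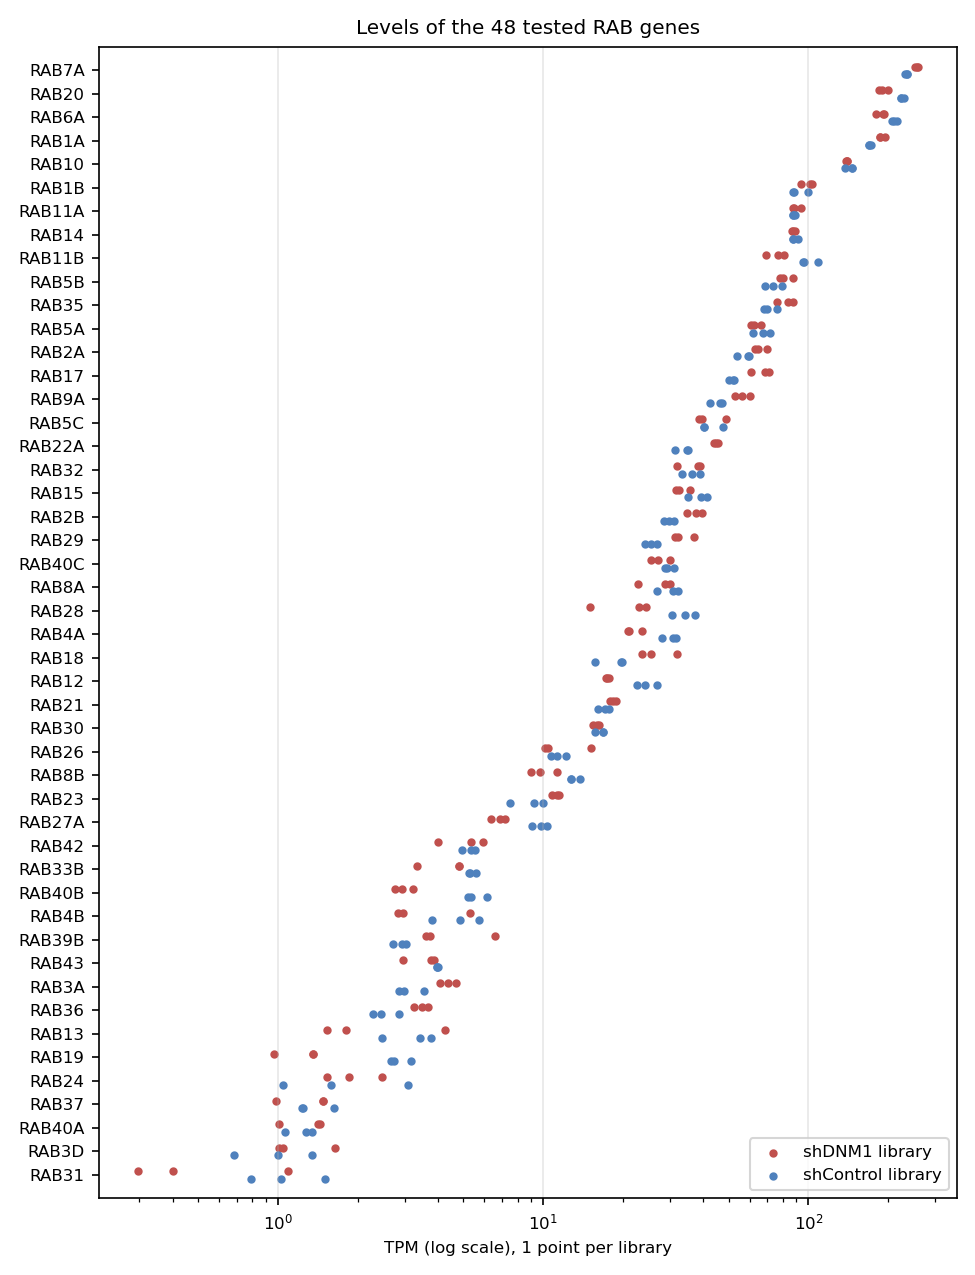
TPM of the 48 RAB genes that passed the low-count filter, on a log axis, with 1 point for each library and the genes ordered by their mean. RAB7A is at the top and RAB31 at the bottom, and for most genes the libraries labelled shDNM1 (upper point of each pair) lie close to the shControl libraries (lower point).

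Of the 64 members 48 passed the low-count filter and were tested. The other 16 included RAB25, the epithelial relative of RAB11, with 6, 3 and 10 counts in the libraries labelled shDNM1 and 9, 10 and 23 counts in shControl. They also included RAB27B, the second RAB27 of secretory granules, with 0 counts in all 6 libraries, which allows up to 3 counts, or 0.222 to 0.234 CPM, in a library. RAB1C was at 0 as well. RAB6C and RAB6D shared 55.8% and 55.0% of the 50-base stretches of their longest transcripts with other genes, mainly each other and RAB6A, and had at most 5 counts in a library; counts within this trio are uncertain.

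At an adjusted p of 0.05, 14 of the 48 tested members rose, 9 fell and 25 were not called in the edgeR quasi-likelihood test. The called share was 47.9%, against 31.9% of all 16744 genes tested (15.6% higher and 16.2% lower). Among members with a mean of at least 10 TPM, 18 of 32 were called (56.2%), against 39.2% of all tested genes at that level. Values of the 2 groups did not overlap for 28 of the 48 members, against 44.3% of all tested genes. Called members differed by a median of 0.40 in absolute log2 fold change, compared with 0.46 for all called genes, and 5 of the 48 tested members were called with a change of at least 1.5-fold, against 11.7% of all tested genes. The median log2 fold change of the 48 was 0.04, against -0.01 for all tested genes. Counts of rises depended on the libraries and the scale. Without shControl replicate 1 or 3, 8 members rose and 7 fell, and on log2(TPM + 1) with limma 8 rose and 9 fell. Rises over all genes were fewer as well: 2617 in the main test, 2107 and 1903 without shControl replicate 1 and 3, and 1801 on log2(TPM + 1). Falls over all genes numbered 2720, 2034, 2087 and 2846 in the same order. Of the 23 calls, 12 were kept under all 17 other settings: RAB17, RAB18, RAB22A, RAB29, RAB2B and RAB9A higher, and RAB11B, RAB19, RAB27A, RAB28, RAB40B and RAB4A lower.

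**Figure D2:**
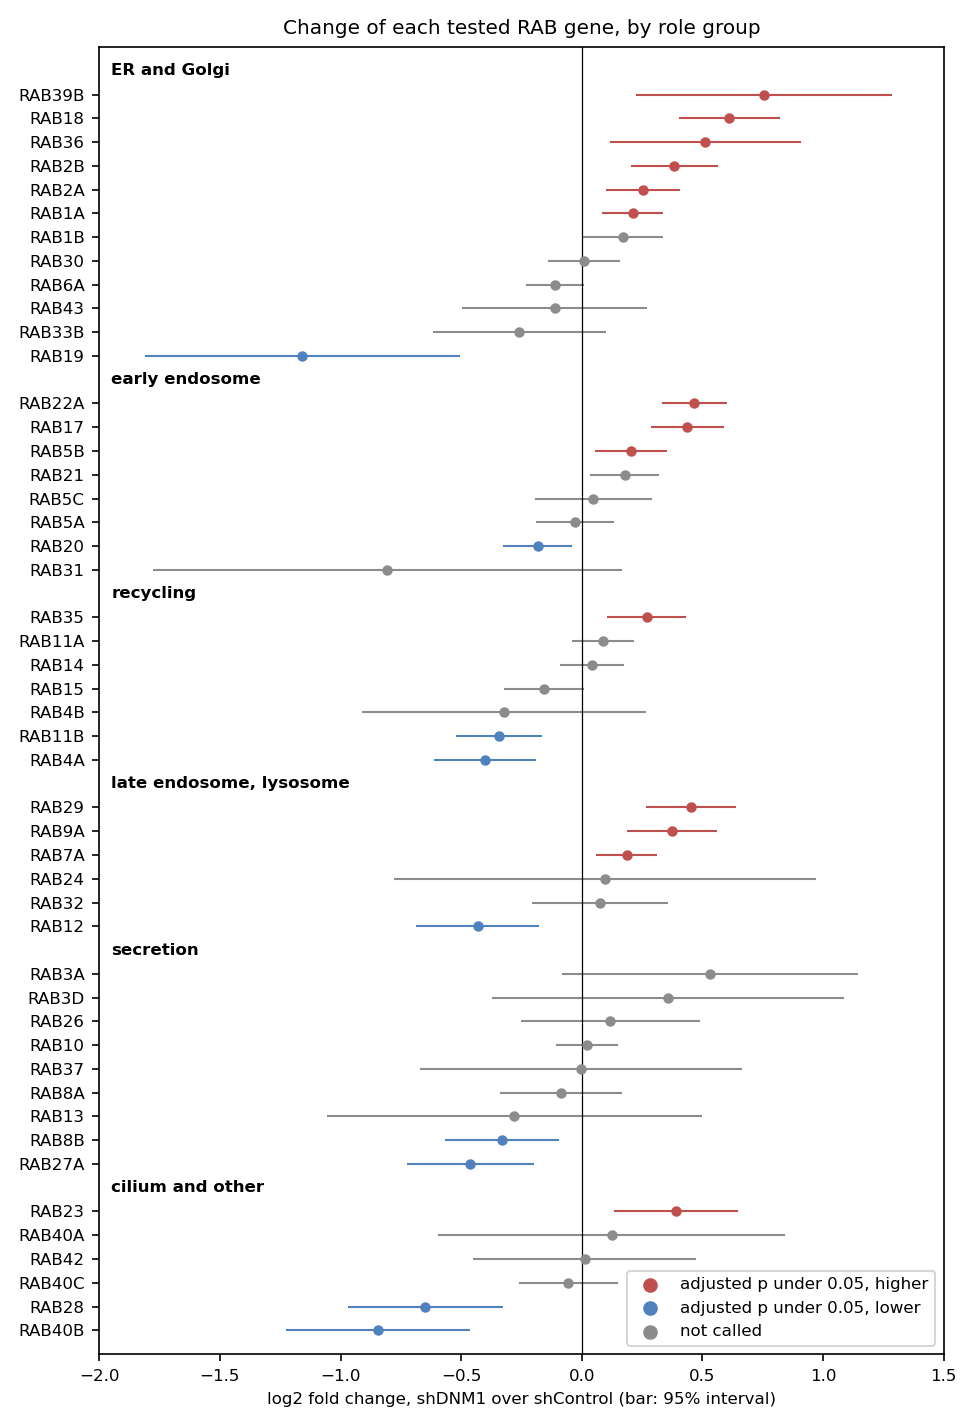
Log2 fold change of each tested RAB gene, libraries labelled shDNM1 over shControl, with its 95% interval, grouped by the compartment the protein is known for. Red marks the 14 called rises, blue the 9 called falls and grey the 25 genes not called; called rises number 6 of 12 in the ER and Golgi group, 3 of 6 in the late endosome group and 0 of 9 in the secretion group, and each group holds at least 1 called fall.

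Promoters of 4 members whose calls were kept under all settings are shown so that the rising and falling genes can be compared at their start sites: RAB18 and RAB22A had the largest such rises, and RAB40B and RAB28 the largest such falls after RAB19, which had at most 36 counts in a library and is left out for that reason. Each stretch is RefSeq sequence on GRCh38.p14, from 250 bases before to 50 bases after the annotated start, written 5′ to 3′ on the gene's strand. Capitals mark the core letters of the E-box (CACGTG), of the NF-Y box (CCAAT), of the GC box bound by SP1 (GGGCGG) and of an ETS site (CCGGAAG), each searched on both strands.
RAB18 promoter (chr10:27504054-27504353, plus strand): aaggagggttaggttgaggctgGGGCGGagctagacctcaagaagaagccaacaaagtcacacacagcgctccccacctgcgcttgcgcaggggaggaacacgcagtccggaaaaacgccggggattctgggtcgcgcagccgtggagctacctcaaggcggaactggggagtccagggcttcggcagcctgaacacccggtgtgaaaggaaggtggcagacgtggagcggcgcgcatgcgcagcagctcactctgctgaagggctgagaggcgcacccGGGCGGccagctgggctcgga
RAB22A promoter (chr20:58309465-58309764, plus strand): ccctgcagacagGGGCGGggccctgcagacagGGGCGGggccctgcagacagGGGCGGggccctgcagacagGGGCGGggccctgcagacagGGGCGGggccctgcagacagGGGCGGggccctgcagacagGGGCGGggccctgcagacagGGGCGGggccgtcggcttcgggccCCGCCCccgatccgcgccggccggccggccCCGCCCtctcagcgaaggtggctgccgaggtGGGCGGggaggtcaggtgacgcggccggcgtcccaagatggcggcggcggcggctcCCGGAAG
RAB40B promoter (chr17:82698649-82698948, minus strand): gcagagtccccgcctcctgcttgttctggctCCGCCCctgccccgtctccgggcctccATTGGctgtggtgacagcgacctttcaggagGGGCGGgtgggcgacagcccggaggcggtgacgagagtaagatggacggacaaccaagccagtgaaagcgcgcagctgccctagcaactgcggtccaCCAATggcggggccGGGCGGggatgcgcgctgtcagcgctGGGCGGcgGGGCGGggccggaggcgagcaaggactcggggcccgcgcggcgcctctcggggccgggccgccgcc
RAB28 promoter (chr4:13484291-13484590, minus strand): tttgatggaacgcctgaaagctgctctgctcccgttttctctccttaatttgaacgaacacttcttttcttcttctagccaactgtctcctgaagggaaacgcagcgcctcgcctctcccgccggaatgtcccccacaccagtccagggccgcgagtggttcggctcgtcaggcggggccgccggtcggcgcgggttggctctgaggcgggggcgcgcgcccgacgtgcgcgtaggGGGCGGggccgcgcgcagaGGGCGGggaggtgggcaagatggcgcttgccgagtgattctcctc
All 4 promoters held GGGCGG, 2 times in RAB18, 11 times in RAB22A, where most copies lie in a tandem repeat, 5 times in RAB40B and 2 times in RAB28. RAB40B alone among them held CCAAT and RAB22A alone CCGGAAG. RefSeq promoters were matched for 50 of the 64 members. GGGCGG was present in 8 of 10 matched promoters of members that rose, 7 of 7 of those that fell and 18 of 21 of those not called, against 44.6% of 27305 promoters of the same length. CACGTG was present in 1, 1 and 4 of the same 3 sets, against 7.4% of all promoters, and TATAAA in 0, 0 and 1, against 11.95%. The median number of CpG sites was 24, 33 and 30 in these sets, against 14 over all promoters. A match of letters is a description and not evidence of binding.

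In the ER to Golgi and Golgi group, 12 members were tested, with 6 called higher, 1 lower and 5 not called; over all tested genes 15.6% rose and 16.2% fell. That background applies to each role group, and with 6 to 12 tested members a group's count is a description only. Without shControl replicate 1 the rises numbered 2, without shControl replicate 3 they numbered 3, and on log2(TPM + 1) they also numbered 3, with 2 falls. RAB18, which acts at the endoplasmic reticulum and on lipid droplets (ENSG00000099246, GRCh38 chr10:27504174-27543207), had 78.4, 61.4 and 63.6 CPM in the libraries labelled shDNM1, against 47.2, 38.3 and 47.6 CPM in shControl. Every library labelled shDNM1 lay above every shControl library, and RAB18 was 1.53-fold higher (adjusted p = 0.000127, 95% interval of the log2 fold change 0.40 to 0.82). Both RAB2 genes, which act in ER to Golgi traffic and in lysosome delivery, rose. RAB2B had 36.0 to 38.5 CPM in the libraries labelled shDNM1 and 26.8 to 30.3 CPM in shControl (1.30-fold, adjusted p = 0.00206). RAB2A was 1.19-fold higher, at 79.6 to 87.3 CPM in the libraries labelled shDNM1 and 64.9 to 73.6 CPM in shControl (adjusted p = 0.0122), a call lost without shControl replicate 1 (adjusted p = 0.0837). RAB1A, the RAB of ER to Golgi vesicles, was 1.16-fold higher (adjusted p = 0.0124), at 154 to 162 CPM in the libraries labelled shDNM1 and 134 to 139.7 CPM in shControl; without shControl replicate 1 or 3 its adjusted p was 0.0540 and 0.0689. RAB1A overlaps CEP68 on the other strand, which fell (adjusted p = 0.0305). Its close relative RAB1B had 65.3, 68.2 and 60.1 CPM in the libraries labelled shDNM1, against 53.9, 63.2 and 55.0 CPM in shControl, and did not pass (log2 fold change 0.17, 95% interval 0.00 to 0.34, adjusted p = 0.119). RAB6A, the Golgi RAB that recruits dynein adaptors, had 216 to 219 CPM in the libraries labelled shDNM1 and 232 to 241 CPM in shControl, and did not pass (log2 fold change -0.11, adjusted p = 0.158). It passed on log2(TPM + 1) (adjusted p = 0.0253) and with library size alone (adjusted p = 0.0457).

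Low-abundance members of the Golgi group gave the widest changes in both directions. RAB39B, a neuronal RAB in which loss of function is known to cause intellectual disability, had 4.27, 7.97 and 4.18 CPM in the libraries labelled shDNM1, against 2.99, 3.31 and 3.39 CPM in shControl. It was 1.69-fold higher (adjusted p = 0.0287), and shDNM1 replicate 2 stood far above the other libraries: with that library left out the difference was 0.39 on the log2 scale (adjusted p = 0.232). The RAB39B call was also lost without shControl replicate 1, 2 or 3 (adjusted p = 0.0896, 0.0648 and 0.0629). RAB36, a Golgi RAB that binds the lysosome positioning protein RILP, had 6.14, 6.14 and 5.47 CPM in the libraries labelled shDNM1, against 3.68, 4.05 and 4.70 CPM in shControl (1.43-fold, adjusted p = 0.0452). The groups did not overlap, but the RAB36 call did not survive the loss of any 1 library (adjusted p = 0.0558 to 0.154). RAB19 was the only member of the group that fell and had the largest change of the whole family. It had 0.854, 1.28 and 1.22 CPM in the libraries labelled shDNM1, against 2.30, 2.43 and 2.78 CPM in shControl, or 2.23-fold lower (log2 fold change -1.16, SE 0.311, adjusted p = 0.00789). The RAB19 gene overlaps SLC37A3 on the other strand, which had 586 to 624 counts in the libraries labelled shDNM1 and 665 to 677 counts in shControl against 11 to 16 and 30 to 36 for RAB19. Whether counting used strand is not given, so reads in the stretch the pair shares (chr7:140404058-140404433) cannot be told apart. The rest of RAB19, up to position 140427974, lies outside SLC37A3.

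Early endosomal RABs, which receive endocytic vesicles, rose in 3 of 8 cases and fell in 1 (50% called, against 31.9% of all tested genes). The fall was lost without shDNM1 replicate 1 or 3 or any 1 shControl library. RAB22A, which controls early endosome fusion and recycling (ENSG00000124209, chr20:58309715-58367507), had 129.7, 134 and 133 CPM in the libraries labelled shDNM1, against 97.6, 90.3 and 99.8 CPM in shControl. The groups were well apart, and RAB22A was 1.38-fold higher with the smallest adjusted p of the family (2.34e-05). RAB17, an epithelial RAB of transcytosis and polarised recycling, had 73.7, 69.2 and 77.4 CPM in the libraries labelled shDNM1, against 54.3, 55.6 and 52.8 CPM in shControl (1.35-fold, adjusted p = 0.000132). Again no library overlapped between the groups. Of the 3 RAB5 genes, whose products organise early endosome fusion, RAB5B was 1.15-fold higher (adjusted p = 0.0357), at 141 to 155 CPM in the libraries labelled shDNM1 and 117 to 139 CPM in shControl. For RAB5B the adjusted p was 0.152 without shDNM1 replicate 3, 0.186 without shControl replicate 1 and 0.119 without shControl replicate 3. RAB5A (log2 fold change -0.03, 95% interval -0.19 to 0.13) and RAB5C (0.05, interval -0.20 to 0.29) did not pass. Of the 50-base stretches of the longest RAB5C transcript 36.2% also occur in AC099811.2. RAB21, which binds integrin tails, fell just outside the threshold (1.13-fold, adjusted p = 0.0542), with 94.0 to 104 CPM in the libraries labelled shDNM1 and 83.2 to 90.3 CPM in shControl, and passed under 6 of the 17 other settings. RAB20 was called lower by a narrow margin (88.1% of shControl, adjusted p = 0.0492), at 92.6 to 106 CPM in the libraries labelled shDNM1 and 109 to 115 CPM in shControl. Leaving out any 1 library except shDNM1 replicate 2 ended the RAB20 call, with adjusted p values of 0.0989 to 0.156.

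Among the RABs of recycling endosomes 2 of 7 tested fell and 1 rose (42.9% called, against 31.9% of all tested genes). RAB4A, which serves the fast recycling route, had 21.05, 24.95 and 21.1 CPM in the libraries labelled shDNM1, against 30.5, 30.6 and 27.4 CPM in shControl. It stood at 75.7% of the shControl level (log2 fold change -0.40, adjusted p = 0.00484) with no overlap of libraries. Of the 50-base stretches of its longest transcript 20.5% also occur in transcripts of other genes, chiefly SPHAR, and the antisense gene RAB4A-AS1 on the same locus had 261 to 266 counts in the libraries labelled shDNM1 and 261 to 313 counts in shControl. RAB4B had 1.98 to 3.49 CPM in the libraries labelled shDNM1 and 2.50 to 3.68 CPM in shControl and did not pass (adjusted p = 0.416). For RAB4B 55.5% of such stretches also occur in other genes, chiefly MIA-RAB4B and RAB4B-EGLN2. RAB11B, of the slow recycling route, fell to 78.8% of shControl (adjusted p = 0.00466), at 36.6 to 43.6 CPM in the libraries labelled shDNM1 and 50.03 to 55.8 CPM in shControl. RAB11A did not pass (log2 fold change 0.09, 95% interval -0.04 to 0.22, adjusted p = 0.298), with 145 to 154 CPM in the libraries labelled shDNM1 and 139 to 145 CPM in shControl. RAB35, which returns cargo to the plasma membrane and has roles in cytokinesis, was 1.20-fold higher (adjusted p = 0.0135), at 72.5 to 88.5 CPM in the libraries labelled shDNM1 and 64.1 to 70.2 CPM in shControl. Without shDNM1 replicate 2 or shControl replicate 3 the adjusted p of RAB35 was 0.0641 and 0.0794. RAB14, which links endosomes with the Golgi, had 120.4 to 128 CPM in the libraries labelled shDNM1 and 118 to 126 CPM in shControl (log2 fold change 0.04, 95% interval -0.09 to 0.17); it overlaps GSN on the other strand, which rose (1.61-fold).

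Late endosomal and lysosomal RABs rose in 3 of 6 tested cases and fell in 1 (66.7% called, against 31.9% of all tested genes). RAB29, which recruits the kinase LRRK2 to membranes of the Golgi and of stressed lysosomes (ENSG00000117280, chr1:205767986-205775482), had 35.7, 36.7 and 41.3 CPM in the libraries labelled shDNM1, against 28.7, 28.1 and 26.4 CPM in shControl. It was 1.37-fold higher (adjusted p = 0.000731), with a clear gap between the groups. RAB9A, which returns mannose 6-phosphate receptors from late endosomes to the Golgi, was 1.30-fold higher (adjusted p = 0.00333), at 36.2 to 41.0 CPM in the libraries labelled shDNM1 and 27.9 to 32.0 CPM in shControl. RAB7A was 1.14-fold higher (adjusted p = 0.0230), at 267 to 292 CPM in the libraries labelled shDNM1 and 243 to 246 CPM in shControl. No library overlapped, but the RAB7A call was lost without shDNM1 replicate 2 or 3 (adjusted p = 0.0655 and 0.0579) and without shControl replicate 1, 2 or 3 (adjusted p = 0.0675, 0.0676 and 0.0890). RAB12, which sends the transferrin receptor to lysosomes, fell. It had 12.35, 13.5 and 12.6 CPM in the libraries labelled shDNM1, against 15.6, 19.2 and 17.0 CPM in shControl (74.1% of shControl, adjusted p = 0.0110; without shControl replicate 2, adjusted p = 0.0679).

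Of the 9 tested RABs of secretion and surface delivery 0 rose and 2 fell (22.2% called, against 31.9% of all tested genes), counts too small to set apart from the background of 15.6% higher and 16.2% lower. RAB27A, which docks secretory granules and exosome-bearing endosomes at the plasma membrane (ENSG00000069974, chr15:55202966-55319113), had 10.6, 10.4 and 11.3 CPM in the libraries labelled shDNM1, against 14.8, 14.1 and 15.8 CPM in shControl. Its level was 72.6% of shControl (adjusted p = 0.00825), and the groups did not overlap. RAB8B, a relative of the exocytic RAB8A, was at 79.5% of shControl (adjusted p = 0.0310), with 15.3 to 18.2 CPM in the libraries labelled shDNM1 and 19.9 to 21.9 CPM in shControl. The RAB8B call was lost without any 1 shControl replicate or without shDNM1 replicate 1 or 2, at adjusted p values of 0.0598 to 0.111. RAB8A did not pass (log2 fold change -0.09, 95% interval -0.34 to 0.17). RAB10 had 166 to 176 CPM in the libraries labelled shDNM1 and 162 to 171 CPM in shControl, a log2 fold change of 0.02 with a 95% interval of -0.11 to 0.15. RAB3A, the synaptic vesicle RAB, had 2.15 to 2.33 CPM in the libraries labelled shDNM1 and 1.38 to 1.77 CPM in shControl; these values did not overlap, but at this depth the adjusted p was 0.180.

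The remaining group holds RABs of the cilium and the RAB40 genes; 1 of 6 tested rose and 2 fell (50% called, against 31.9% of all tested genes). RAB28, a farnesylated RAB of ciliated photoreceptors (ENSG00000157869, chr4:13361354-13484365), had 14.5, 14.6 and 9.05 CPM in the libraries labelled shDNM1, against 21.6, 18.1 and 20.0 CPM in shControl. The groups did not overlap, replicate 3 was the lowest, and RAB28 stood at 63.8% of shControl (log2 fold change -0.65, SE 0.153, adjusted p = 0.00317). RAB40B, whose product carries a SOCS box and serves as substrate receptor of a ubiquitin ligase (ENSG00000141542, chr17:82654973-82698698), had 4.12, 3.75 and 3.80 CPM in the libraries labelled shDNM1, against 6.59, 7.81 and 6.55 CPM in shControl. All 3 libraries labelled shDNM1 were lower, and RAB40B was 1.80-fold lower (adjusted p = 0.00155). RAB40C did not pass (log2 fold change -0.06, 95% interval -0.26 to 0.15). RAB23, a negative regulator of Hedgehog signalling, was 1.31-fold higher (adjusted p = 0.0204), at 18.2 to 18.8 CPM in the libraries labelled shDNM1 and 12.01 to 15.8 CPM in shControl. Without shControl replicate 2 or shDNM1 replicate 3 the RAB23 call was lost (adjusted p = 0.117 and 0.0559). RAB23 overlaps BAG2 on the other strand, which fell (adjusted p = 0.0143).

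**Figure D3:**
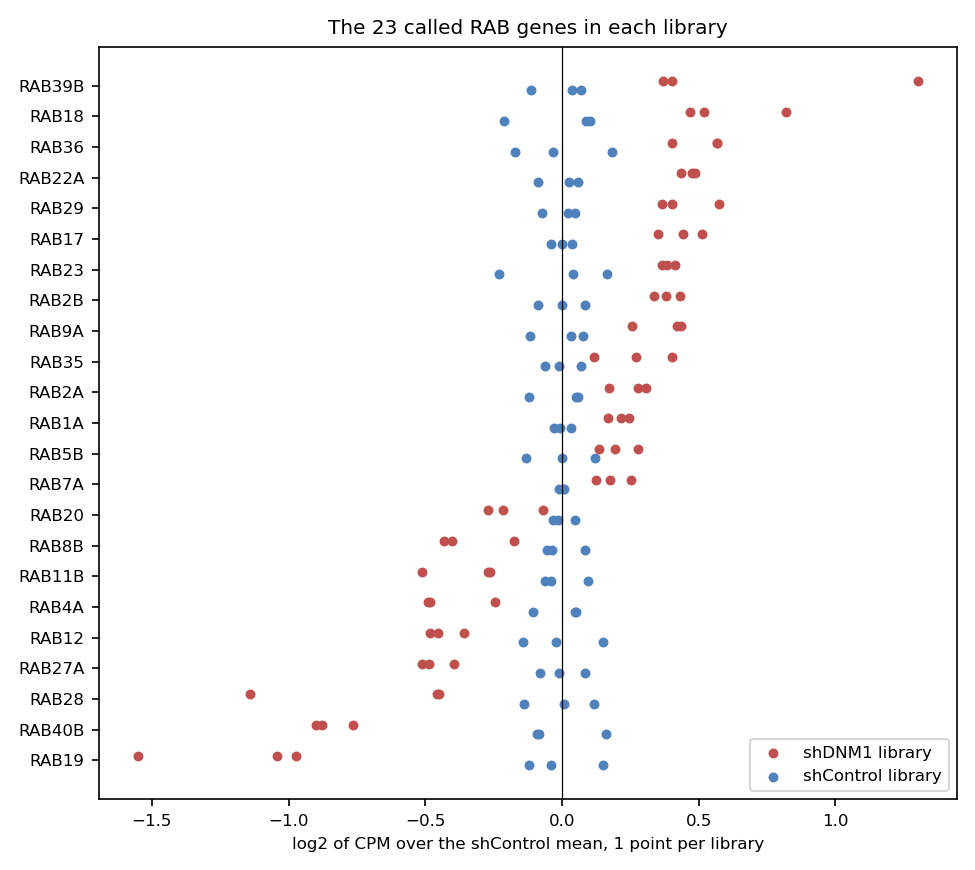
CPM of the 23 called RAB genes in each library, as log2 of the value over the shControl mean of that gene, so that 0 is the shControl mean. Red points (libraries labelled shDNM1) and blue points (shControl libraries) do not overlap for any of these genes; the red points of RAB39B, RAB28 and RAB19 are the most spread.

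Levels were also summed by role, on the TPM scale only. Sums of CPM, which does not correct for length, were not computed. Against the main test, the median shift in log2 fold change on log2(TPM + 1) was -0.058. Differences between sums of TPM therefore need not hold on the CPM scale. Recycling RABs together reached 389.7, 399 and 399 TPM in the libraries labelled shDNM1, against 441, 418 and 416 TPM in shControl. Late endosomal and lysosomal RABs summed to 396, 405 and 407 TPM in the libraries labelled shDNM1, against 366, 367 and 374 TPM in shControl. For ER to Golgi and Golgi members the sums were 666, 629 and 632 TPM in the libraries labelled shDNM1, against 607, 620 and 622 TPM in shControl. Secretory RABs summed to 198.6, 206 and 209.8 TPM in the libraries labelled shDNM1, against 214, 212 and 223 TPM in shControl. The group of ciliary and other RABs reached 71.7, 70.5 and 64.5 TPM in the libraries labelled shDNM1, against 87.9, 82.0 and 84.2 TPM in shControl. The groups of libraries did not overlap for these 5 sums on the TPM scale, and overlap by CPM was not tested. Of all tested single genes 44.3% did not overlap by CPM, a different scale from these sums. Sums of other gene sets were not computed. A sum can follow few members. RAB11B averaged 75.7 TPM in the libraries labelled shDNM1 and 100 TPM in shControl, and RAB28 20.8 and 34.0 TPM. Log2 fold changes were positive for 3 of 7 tested recycling members and 3 of 6 ciliary and other members. Early endosomal RABs overlapped, at 498 to 517 TPM in the libraries labelled shDNM1 and 506 to 519.6 TPM in shControl.

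Within subfamilies the balance between close relatives was compared as each member's share of the subfamily's summed TPM, for subfamilies with at least 2 members at a mean of 1 TPM. In RAB11 the share of RAB11A was 57.3%, 53.1% and 51.4% in the libraries labelled shDNM1, against 44.3%, 47.5% and 46.5% in shControl. That of RAB11B was 41.9%, 46.5% and 47.5% in the libraries labelled shDNM1, against 54.8%, 51.4% and 50.8% in shControl. By TPM, RAB11A was thus the more abundant of the pair in each library labelled shDNM1 and RAB11B in each shControl library. This order holds on the TPM scale only. By CPM, which does not correct for length, RAB11A exceeded RAB11B in all 6 libraries, at 139 to 154 against 36.6 to 55.8 CPM. Their longest transcripts have 4930 and 1751 bases. RAB40B made up 9.40% ± 1.14 of the RAB40 sum in the libraries labelled shDNM1 and 15.2% ± 0.577 in shControl (SD, n = 3). RAB40C made up 86.5% ± 1.89 and 81.5% ± 0.744 of the same sum. Shares of the same sum are complementary, so RAB11A with RAB11B, and RAB40B with RAB40C, are not separate results. RAB29 made up 47.8% ± 2.72 of the sum of RAB29, RAB32 and RAB38 in the libraries labelled shDNM1 and 41.2% ± 2.70 in shControl. RAB2A took 63.8% ± 1.20 of the RAB2 sum in the libraries labelled shDNM1 and 65.9% ± 0.739 in shControl. The shares of RAB1, RAB3, RAB4, RAB5 and RAB8 members overlapped between the groups; that of RAB4A was 85.6% ± 4.95 in the libraries labelled shDNM1 and 86.3% ± 2.40 in shControl. Each share that did not overlap reached the smallest exact permutation p this design allows, 0.1 (two-sided). Its adjusted p was 0.25 over 15 shares, so none could pass the threshold. The shares without overlap numbered 6 of these 15, and 44.3% of all tested single genes did not overlap by CPM. No subfamily had members called in opposite directions.

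**Figure D4:**
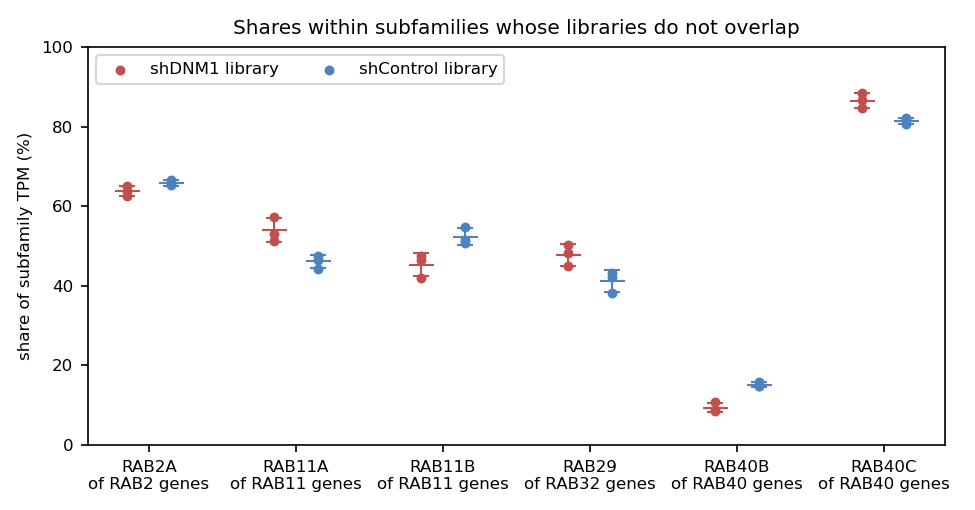
Share of subfamily TPM, in percent, for the 6 member shares whose groups did not overlap. Shares of the same subfamily are complementary and not separate results. Points are libraries, and bars give the mean and SD of 3. RAB11A lies above and RAB11B below its shControl value, and the RAB40B share is 9.40% in the libraries labelled shDNM1 and 15.2% in shControl.

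Genes of the proteins that load, unload and read RABs changed in both directions. Of 126 such genes in 4 lists, 120 were tested, 30 rose and 26 fell, to be read against the 15.6% and 16.2% of all tested genes. Their median log2 fold change was 0.03. Effectors gave the largest count, with 14 of 41 higher and 9 lower. OPTN, an effector of RAB8 and an autophagy receptor, had 121 ± 3.83 CPM in the libraries labelled shDNM1 and 59.3 ± 3.76 CPM in shControl (SD, n = 3), 2.04-fold higher. UNC13D, the priming factor that binds RAB27, had 88.7 ± 0.931 CPM in the libraries labelled shDNM1 and 44.6 ± 1.96 CPM in shControl, 1.99-fold higher, and MICALL1 of recycling tubules was 1.53-fold higher. In contrast MYO5C, an epithelial myosin V motor, was at 65.5% of shControl, the RAB27 effector gene EXPH5 at 68.1% and the RAB11 effector gene RAB11FIP3 at 68.7%. EXPH5 and RAB27A were thus both lower while UNC13D was higher.

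Regulators of the GTP cycle were split, as were all tested genes (15.6% higher and 16.2% lower, 31.9% called). Of 36 tested exchange factors 7 rose and 6 fell (36.1% called, near that background). The falls numbered 3 without shControl replicate 1 and 3 in DESeq2. GAPVD1 and RIN1, exchange factors for RAB5, were 1.34-fold and 1.62-fold higher, and MON1A, a subunit of the RAB7 exchange factor, 1.53-fold. RAB3IP, which activates RAB8, and the RAB10 exchange factors DENND4B and DENND4C stood at 78.8%, 83.0% and 80.6% of shControl. Of 35 GAPs 7 rose and 8 fell (42.9% called). The GAP falls numbered 5 without any 1 shControl library and in DESeq2, and 4 with the length trend removed, while library size alone gave 6 rises and 11 falls, so which direction was more frequent depended on the setting. TBC1D25, TBC1D8 and TBC1D20, the last a GAP for RAB1, were 1.499-fold, 1.37-fold and 1.31-fold higher, whereas TBC1D5, a GAP for RAB7, was at 63.3%, TBC1D9B at 70.1% and RABGAP1L at 79.5% of shControl. In the list of 8 genes for GDI, escort and prenylation, 2 rose and 3 fell (62.5% called, a description only in so short a list). The 2 subunits of the enzyme that attaches the lipid anchor of RABs moved apart: RABGGTA was 1.43-fold higher (adjusted p = 0.000591) and RABGGTB at 81.2% of shControl (adjusted p = 0.0112). The escort genes CHM and CHML were at 78.2% and 81.2% of shControl (adjusted p = 0.0113 and 0.0468), and for both the groups overlapped. CHM lost its call under 5 of the 17 other settings, log2(TPM + 1) and log2(TPM + 0.1) among them. CHML lost it under 10, among them RLE scaling, DESeq2 and both TPM scales. All 3 falls in the list were lost without shDNM1 replicate 2 or 3 or without shControl replicate 1, at adjusted p values of 0.0509 to 0.0845 for RABGGTB, 0.0527 to 0.0938 for CHM and 0.169 to 0.257 for CHML, and the last was also lost without shControl replicate 3 (adjusted p = 0.158). Each of the other partner genes named kept its call under all 17 other settings.

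**Figure D5:**
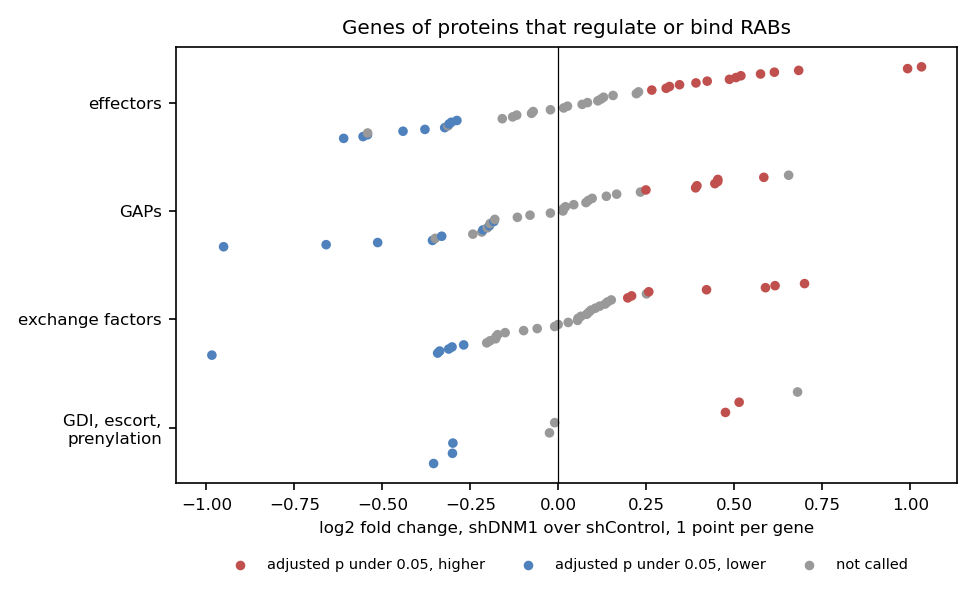
Log2 fold change, libraries labelled shDNM1 over shControl, of the 120 tested genes that encode RAB effectors, GAPs, exchange factors and the GDI, escort and prenylation machinery, 1 point for each gene. Red points were called higher (30 genes) and blue points lower (26 genes); OPTN and UNC13D are the 2 effector genes at the far right.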

How the data were processed

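The authors deposited whole-number read counts per gene without normalisation. The submitters' processing notes name GRCh38. Aligner, counter, annotation, read length and strand setting are not stated in the sources at hand. The deposited TPM table was handled as a score, because its columns exceed the expected total over all 62710 lines; over the 60835 unique names they sum to that total. Among the lines of each, 2328 repeat 453 names and were collapsed. Per-sample columns left unused numbered 0.

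Counts were tested with edgeR 4.0.16 in R 4.3.3 (filterByExpr, TMM, two-sided quasi-likelihood F test) across 16744 genes, with Benjamini-Hochberg adjustment over all of them and a threshold of 0.05. Every adjusted p of a gene is from this test unless another is named. Alternatives were RLE scaling, library size alone, other low-count filters, DESeq2 1.42.0, limma-voom and limma-trend (limma 3.58.1) on log2(TPM + 1) and log2(TPM + 0.1), the replicate number as a block, leaving out each library and, chosen after seeing the data, removal of GC and length trends. Transcript stretches of 50 bases and GC content came from GENCODE release 29; 96.7% of tested genes had a GC value. Sequence sharing is an index only, since the read length is not known.

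The members, role groups and partner lists were chosen with earlier results of these data known. The text names DNM1, every called member (all 6 library values for the 12 largest changes), the 8 most abundant members and up to 3 partner genes in each list and direction with the smallest p; other members were named after their values were seen. The result of 1 partner gene is not reported here. Intervals and the limit of 3 counts cover counting or replicate error only. Groups of 3 libraries limit the precision.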

Additional observations from a re-analysis of the deposited data

How the results depend on the processing

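Of the 23 called RAB genes, 12 kept direction and call under all 17 other settings, 11 were lost under at least 1, and 0 reversed. The number higher, 14, ran from 8 to 14 when a library was left out, and the number lower, 9, from 6 to 9. On log2(TPM + 1) and log2(TPM + 0.1) the counts were 8 higher and 9 lower. All tested genes gave 1801 higher and 2846 lower on log2(TPM + 1), against 2617 and 2720 in the main test. The other settings gave 12 to 15 RAB genes higher and 7 to 10 lower. Apart from leaving out a library, calls were lost for RAB36 (6 settings), RAB20 (4), RAB8B (4), RAB39B (3), RAB5B (3), and for RAB2A, RAB23 and RAB35 on both TPM scales. DNM1 passed with the GC trend removed (log2 fold change -0.20, adjusted p = 0.0482), and ran from -0.205 to -0.0373 as libraries were left out. RAB10, not called, reversed to -0.0158 with library size alone, -0.0377 on log2(TPM + 1) and -0.0379 on log2(TPM + 0.1), and ran from -0.0076 to 0.0375 as libraries were left out (-0.0076 without shDNM1 replicate 2 and -0.0039 without shControl replicate 2). RAB14, not called, reversed to -0.0167 and -0.0169 on the same 2 TPM scales. Against the main test, the median shift in log2 fold change was -0.0355 with library size alone. It was -0.058 on log2(TPM + 1) and -0.0591 on log2(TPM + 0.1). The cause of the RAB10 and RAB14 reversals was not tested. Over all genes, calls ranged from 1903 to 2939 higher and from 2034 to 2951 lower without 1 library, and called partner genes, 56, from 42 to 55. The 6 subfamily shares without overlap became 6 to 8 without 1 library. Leaving out a library can only keep or add shares without overlap, so this count does not measure stability. Deviations from the group mean correlated at 0.102, 0.063 and -0.033 for same-numbered libraries and at -0.098 to 0.033 for the others. Whether the numbers pair libraries is not settled by these values. With the replicate block 15 RAB genes rose and 9 fell, the added call being RAB21. Over all genes the block gave 2964 higher and 3116 lower, and DNM1 had an adjusted p of 0.0629 (edgeR quasi-likelihood test). Depth limits members under about 1 TPM, of which 1 was tested.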
